A study of Mus musculus with 9 samples.

Results

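The genes described here encode the machinery of cell division: 13 genes of DNA replication and 27 genes of mitosis, 40 in all. They were chosen by name from that machinery, with earlier results of these data known. Each was read from a transcript cluster of the array that the probe table ties to a single symbol, and from the cluster of highest mean over 9 arrays where a gene had several. This gave a value for 38 of 40 genes, 12 of replication and 26 of mitosis, out of 30120 genes with a single symbol and 65672 transcript clusters. Mcm7 was left out because its cluster is shared with 2 microRNA genes, and the probe table names no cluster for Ccnb1. The values come from whole quadriceps of dystrophin-deficient mdx mice aged 8 weeks on a mixed C57BL6/C57BL10 background, with 1 Clariom D array per mouse and 3 mice per group, and all 9 mice carried floxed alleles of the mineralocorticoid receptor (MR). Cre-/mdx mice had no Cre and kept MR. MCK-MRcko/mdx mice carried 1 Cre allele driven by the muscle creatine kinase promoter, which is active in differentiated muscle fibers, and LysM-MRcko/mdx mice carried 1 Cre allele in the lysozyme M gene, which is active in macrophages, neutrophils and other myeloid cells. The Cre-/mdx and LysM-MRcko/mdx groups held 2 males and 1 female each, and the MCK-MRcko/mdx group held 1 male and 2 females. The study asked how loss of MR in either cell type alters gene expression in dystrophic muscle.

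A cell that commits to division first loads the MCM helicase onto replication origins, makes deoxynucleotides and copies its DNA in S phase, and then builds a spindle, attaches chromosomes to it through their kinetochores, separates them and splits in cytokinesis. Transcripts of the replication genes are controlled largely by E2F factors and appear before those of the mitosis genes, which depend on the MuvB complexes that bind a short promoter element called the cell cycle genes homology region (CHR). Muscle fibers themselves do not divide. In mdx muscle, where fibers degenerate and regenerate in cycles, the dividing cells are chiefly satellite cells and their myoblast progeny, infiltrating and resident macrophages, fibro-adipogenic progenitors and endothelial cells.

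All values are log2 signals as deposited. Array medians lay between 4.70 and 4.78, and 149 clusters, among them many genes of the contractile apparatus, stood at the top of the scale at 19.93 on every array. The means of the 38 genes over all arrays ran from 4.71 for Birc5 to 10.64 for Mki67, with a median of 7.12. None was near the top of the scale, and Birc5 and Cdc6 (4.77) lay at the level of the array medians, the middle of all clusters. The signal of a cluster depends on its probes as well as on its RNA, so levels of different genes are not amounts to be compared. A gene is called higher or lower here when the groups differed by at least 2-fold (1 on the log2 scale) with an unadjusted p under 0.05 in a limma model of all 9 arrays. Of 65672 clusters, 0 had a p under 0.05 after Benjamini-Hochberg adjustment in any of the 3 limma comparisons, and an exact two-sided permutation test of 3 against 3 mice cannot give a p below 0.1. In RNA from whole muscle, more dividing cells and more transcript in each dividing cell cannot be told apart.

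Before the values, the promoters are shown, since the 2 sets differ in how often their windows hold certain motifs. RefSeq promoter windows of build GRCm38.p6, from 250 bases before to 50 bases after a start site, were matched by symbol for 32 of the 38 genes and not for Mcm4, Ccne2, Ccna2, Aurkb, Kif20a and Tpx2. In each window 3 motifs were searched on both strands. The CHR was TTTGAA, the CCAAT box was CCAAT, and the E2F element was any of TTTCCCGC, TTTCGCGC, TTTGCCGC and TTTGGCGC. The CHR was found in 17 of 22 mitosis genes (77.3%) and in 1 of 10 replication genes (10.0%, Mcm2), against 20.2% of 27025 genes with a window. The E2F element was found in 5 of 10 replication genes (50%; Mcm3, Mcm5, Mcm6, Cdc6 and Pola1) and in 2 of 22 mitosis genes (9.09%; Cdk1 and Kif15), against 2.6% of all genes. The CCAAT box was common to both sets, with 80.0% of replication and 72.7% of mitosis genes against 41.1% of all. Among the called genes described below, Mki67, Kif11, Top2a, Ect2 and Plk1 held a CHR, Cenpe held none, and Ccna2 had no window. The 140 bases before the start site are shown for 4 of these genes and for Cdk1, with the CHR in capitals (TTCAAA where it lies on the other strand). For Mcm6 and Pola1, 2 replication genes that stood apart in the comparisons, the E2F element is in capitals (on the other strand, GCGCGAAA in Mcm6 and GCGCCAAA in Pola1). Windows lie on chr7:135716380-135716519 for Mki67, chr19:37376242-37376381 for Kif11, chr11:99024190-99024329 for Top2a, chr3:27153879-27154018 for Ect2, chr10:69352913-69353052 for Cdk1, chr1:128359706-128359845 for Mcm6 and chrX:93632156-93632295 for Pola1. Kif11 is on the plus strand and the others are on the minus strand, and each sequence is written in the direction of its gene.
Mki67: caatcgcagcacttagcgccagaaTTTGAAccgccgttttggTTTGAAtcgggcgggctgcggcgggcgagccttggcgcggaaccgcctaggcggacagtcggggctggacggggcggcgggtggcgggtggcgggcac
Kif11: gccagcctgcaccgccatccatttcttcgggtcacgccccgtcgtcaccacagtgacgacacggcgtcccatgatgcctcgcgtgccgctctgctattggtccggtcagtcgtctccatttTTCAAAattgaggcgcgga
Top2a: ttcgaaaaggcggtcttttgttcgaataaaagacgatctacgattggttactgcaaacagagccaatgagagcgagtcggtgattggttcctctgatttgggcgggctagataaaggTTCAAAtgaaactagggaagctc
Ect2: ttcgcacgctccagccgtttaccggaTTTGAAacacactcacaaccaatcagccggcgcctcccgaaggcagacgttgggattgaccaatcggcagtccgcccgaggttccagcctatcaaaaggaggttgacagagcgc
Cdk1: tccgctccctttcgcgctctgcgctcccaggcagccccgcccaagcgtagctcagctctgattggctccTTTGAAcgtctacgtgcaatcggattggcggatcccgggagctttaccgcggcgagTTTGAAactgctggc
Mcm6: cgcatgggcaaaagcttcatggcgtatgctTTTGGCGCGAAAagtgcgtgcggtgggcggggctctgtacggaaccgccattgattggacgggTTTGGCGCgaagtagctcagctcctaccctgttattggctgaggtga
Pola1: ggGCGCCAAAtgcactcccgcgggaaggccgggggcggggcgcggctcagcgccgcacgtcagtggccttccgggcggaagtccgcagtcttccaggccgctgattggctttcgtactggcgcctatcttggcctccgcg
Mki67 and Cdk1 held 2 CHR elements each in the stretch shown, and those of Kif11 and Top2a lay close to the start, at bases -19 to -14 and -23 to -18 with the start site as 0. Ect2 has 2 annotated starts, and the stretch before the upstream start is shown. In Mcm6, 2 of 3 E2F matches overlapped and form a single run of capitals. A match of letters is a description of the window and says nothing of whether a factor binds there.

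**Figure D1:**
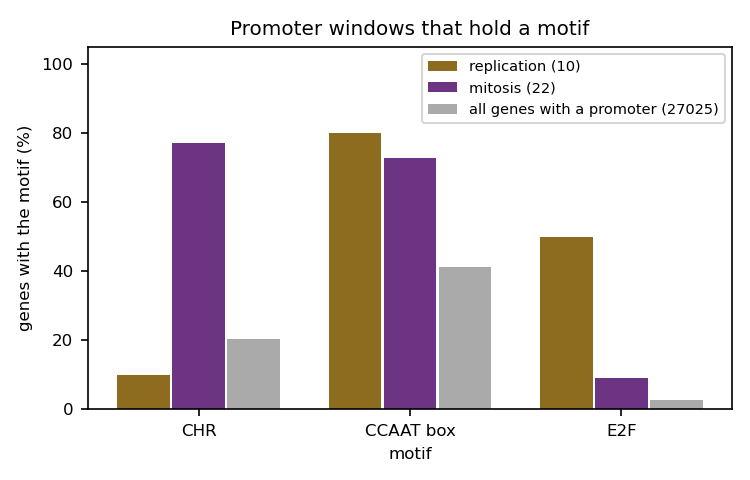
Share of genes (y axis, percent) whose promoter window holds each of 3 motifs (x axis), for the replication genes (10 windows), the mitosis genes (22) and all genes with a window (27025). The CHR stood at 77.3% in mitosis genes and 10.0% in replication genes, and the E2F element at 50% in replication genes and 9.09% in mitosis genes.

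In MCK-MRcko/mdx quadriceps all 38 genes had a higher mean than in Cre-/mdx quadriceps, and 6 of 38 were called higher: Mki67, Kif11, Top2a, Ect2, Ccna2 and Cenpe. None was called lower, and all 6 belong to the mitosis set. Over all clusters 0.227% were called higher, 0.0944% were called lower and 48.7% had a positive difference. At an unadjusted p under 0.05 without the limit on fold, 19 of 38 genes were higher (7 of 12 replication, 12 of 26 mitosis) and 0 lower, against 3.02% and 2.52% of all clusters. The 3 MCK-MRcko/mdx arrays all lay above the 3 Cre-/mdx arrays for 32 of 38 genes (12 of 12 replication and 20 of 26 mitosis), against 3.39% of all clusters, and below them for 0 genes, against 2.81%. The median difference was 0.61 on the log2 scale (0.50 for replication and 0.67 for mitosis), and that of all clusters was 0. The smallest adjusted p of any of these genes in limma was 0.84. Most of these calls rested on single arrays: without Cre-/mdx replicate 2 the genes called were 2 (Kif11 and Pcna), without MCK-MRcko/mdx replicate 3 only 1 (Kif11), and without MCK-MRcko/mdx replicate 1 they were 9, while the median difference stayed between 0.44 and 0.70.

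**Figure D2:**
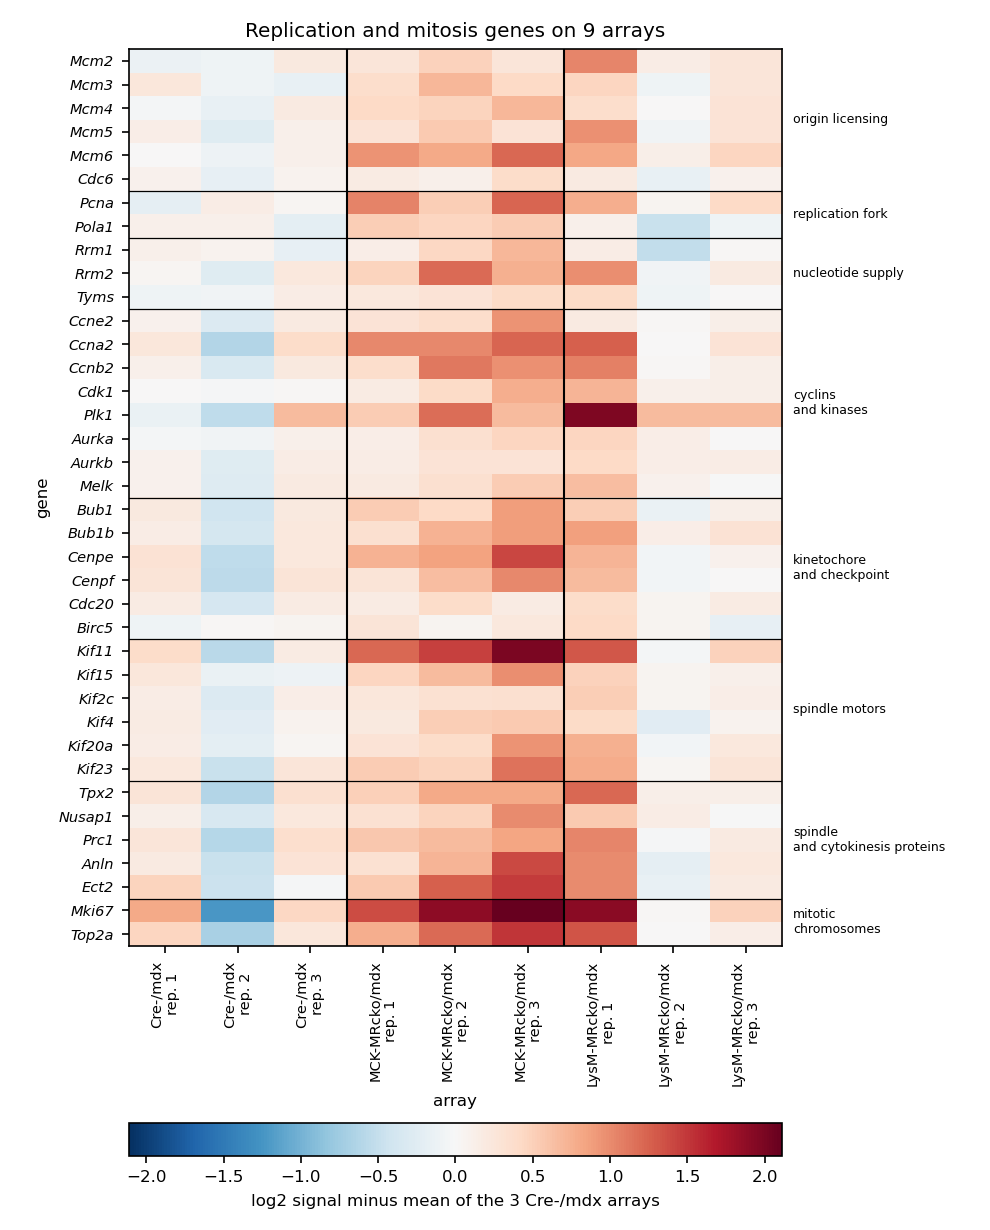
Colours give the log2 signal of each of 38 genes (rows, ordered by role) on each of 9 arrays (columns) minus the mean of the 3 Cre-/mdx arrays, red above and blue below it. The 3 MCK-MRcko/mdx arrays and LysM-MRcko/mdx replicate 1 were red for most genes, LysM-MRcko/mdx replicates 2 and 3 stayed close to the controls, and Cre-/mdx replicate 2 was the lowest array for 30 of 38 genes.

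The widest differences were in genes of mitotic chromosomes and the spindle. Mki67 encodes Ki-67, which coats mitotic chromosomes and is the usual marker of cycling cells. Its log2 signals were 10.58, 8.54 and 10.21 in Cre-/mdx replicates 1 to 3, 11.16, 11.67 and 11.89 in MCK-MRcko/mdx, and 11.68, 9.80 and 10.26 in LysM-MRcko/mdx. Every MCK-MRcko/mdx array lay above every control, and 1 control, replicate 2, lay far below the other two. The difference of MCK-MRcko/mdx from Cre-/mdx was 1.80 (3.47-fold, SE 0.66, unadjusted p = 0.0296 in limma), a call lost in a plain equal-variance test of the 6 arrays. Top2a encodes the topoisomerase that untangles sister chromatids. It read 8.39, 7.25 and 8.17 in Cre-/mdx, 8.71, 9.13 and 9.44 in MCK-MRcko/mdx, and 9.26, 7.94 and 8.08 in LysM-MRcko/mdx, with the same low control array and the same high LysM-MRcko/mdx array as Mki67. Its difference in MCK-MRcko/mdx was 1.16 (2.23-fold, SE 0.44, unadjusted p = 0.0347 in limma).

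Kif11 encodes the motor that pushes the spindle poles apart, and it was the most stable of the calls. Signals of Kif11 were 7.87, 6.91 and 7.65 in Cre-/mdx, 8.69, 8.92 and 9.47 in MCK-MRcko/mdx, and 8.79, 7.44 and 7.97 in LysM-MRcko/mdx. The lowest MCK-MRcko/mdx array stood 0.82 above the highest control. The difference of MCK-MRcko/mdx from Cre-/mdx was 1.55 (2.93-fold, SE 0.41, unadjusted p = 0.00682 in limma), and the call held with each of the 9 arrays left out in turn, with differences between 1.27 and 1.75. The other 5 motors, Kif15, Kif2c, Kif4, Kif20a and Kif23, were not called, with differences between 0.30 and 0.72, yet the MCK-MRcko/mdx arrays lay above all controls for each of them. Kif15, which shares the work of Kif11 in keeping the spindle bipolar, passed the unadjusted p limit at 0.70 (unadjusted p = 0.00653 in limma).

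Ect2 activates the RhoA GTPase at the cleavage furrow. It read 7.49, 6.57 and 6.99 in Cre-/mdx, 7.57, 8.28 and 8.50 in MCK-MRcko/mdx, and 8.01, 6.86 and 7.20 in LysM-MRcko/mdx. The lowest MCK-MRcko/mdx array and the highest control nearly met. The difference of MCK-MRcko/mdx was 1.10 (2.14-fold, SE 0.39, unadjusted p = 0.0259 in limma). The other spindle and cytokinesis proteins, Tpx2, Nusap1, Prc1 and Anln, differed by 0.60 to 0.81, with no overlap of the arrays for any of the 4, and Nusap1 alone among them passed the unadjusted p limit.

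Among the cyclins and kinases Ccna2, the cyclin of S phase and mitotic entry, was called. Ccna2 signals were 8.37, 7.51 and 8.51 in Cre-/mdx, 9.15, 9.15 and 9.36 in MCK-MRcko/mdx, and 9.39, 8.13 and 8.42 in LysM-MRcko/mdx. The 3 MCK-MRcko/mdx arrays were close together and all above the controls, and the highest array of all was LysM-MRcko/mdx replicate 1. The difference of MCK-MRcko/mdx was 1.09 (2.13-fold, SE 0.38, unadjusted p = 0.0233 in limma). Ccnb2, the partner of Cdk1 in mitosis, differed by 0.82 (unadjusted p = 0.0412 in limma). Cdk1, the kinase that drives mitotic entry, read 5.83, 5.80 and 5.86 in Cre-/mdx, 6.01, 6.23 and 6.59 in MCK-MRcko/mdx, and 6.55, 5.93 and 5.95 in LysM-MRcko/mdx. Here the controls were tight and every knockout array of either kind lay above them, while the difference of 0.45 in MCK-MRcko/mdx did not pass either limit (unadjusted p = 0.0625 in limma). The kinases Aurka, Aurkb, Melk and Plk1 lay between 0.24 and 0.80 in MCK-MRcko/mdx and were not called.

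Cenpe, a kinetochore motor that moves chromosomes to the middle of the spindle, stood exactly at the 2-fold limit. It read 7.12, 6.27 and 7.04 in Cre-/mdx, 7.55, 7.66 and 8.22 in MCK-MRcko/mdx, and 7.53, 6.76 and 6.90 in LysM-MRcko/mdx. Every MCK-MRcko/mdx array was above every control and every LysM-MRcko/mdx array, and the difference from Cre-/mdx was 1.00 (SE 0.31, unadjusted p = 0.0156 in limma). The checkpoint kinases Bub1 and Bub1b differed by 0.61 and 0.65 and passed the unadjusted p limit. Cenpf, Cdc20 and Birc5 did not pass it, at 0.65, 0.25 and 0.19, and their groups overlapped.

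No replication gene was called in MCK-MRcko/mdx, although the arrays of the 2 groups were apart for each of the 12. The gap was narrow for some, as for Cdc6, with 4.79 on the lowest MCK-MRcko/mdx array and 4.78 on the highest control. Mcm6, a subunit of the replicative helicase named here because it fell just short of the fold limit, read 6.74, 6.62 and 6.83 in Cre-/mdx, 7.68, 7.53 and 7.94 in MCK-MRcko/mdx, and 7.55, 6.86 and 7.19 in LysM-MRcko/mdx. Its controls were within 0.21 of each other, and its difference of 0.99 (1.98-fold, SE 0.18) had the smallest unadjusted p of the 38 genes, 0.00103 in limma. Pcna, the sliding clamp of the replication fork, read 9.65, 10.00 and 9.89 in Cre-/mdx, 10.89, 10.36 and 11.08 in MCK-MRcko/mdx, and 10.62, 9.90 and 10.26 in LysM-MRcko/mdx. Its difference was 0.93 (1.91-fold, SE 0.24, unadjusted p = 0.00617 in limma). The other helicase subunits differed less. Mcm2 read 5.79, 5.82 and 6.12 in Cre-/mdx, 6.17, 6.4 and 6.17 in MCK-MRcko/mdx, and 6.95, 6.07 and 6.17 in LysM-MRcko/mdx, so that the highest value came from a LysM-MRcko/mdx mouse, and the MCK-MRcko/mdx difference of 0.34 did not pass (unadjusted p = 0.192 in limma). Mcm3 and Mcm4 passed the unadjusted p limit at 0.50 and 0.53, and Mcm5 and the helicase loader Cdc6 did not at 0.38 and 0.22. Pola1, the catalytic subunit of the polymerase that primes new strands, passed it at 0.50. Of the genes that supply deoxynucleotides, the ribonucleotide reductase subunit Rrm2 passed it at 0.80, and its partner Rrm1 and the thymidylate synthase Tyms did not at 0.42 and 0.31. Ccne2, a cyclin of the start of S phase, passed it at 0.54.

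**Figure D3:**
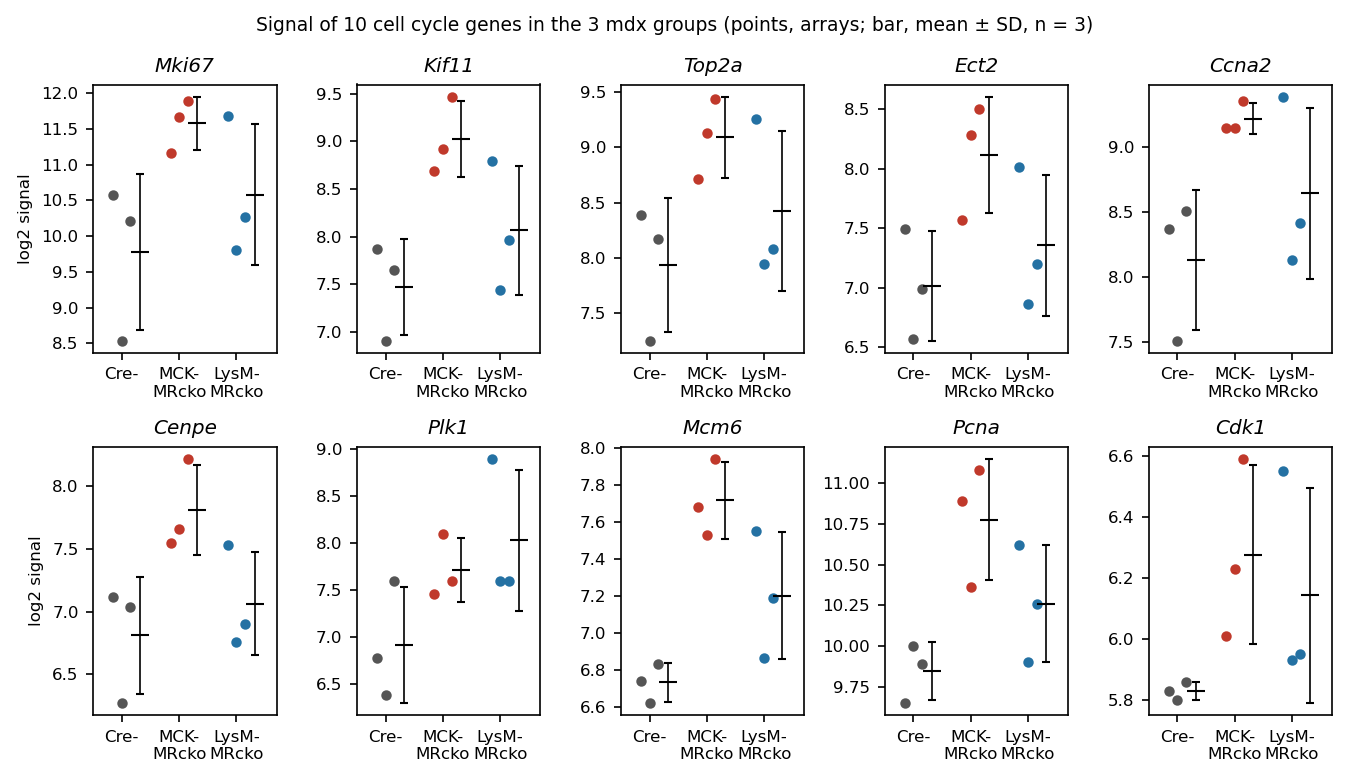
Log2 signal (y axes, which differ between panels and do not start at 0) of 10 genes on the 9 arrays, by group (x axes). Points are arrays and black bars are the mean ± SD of 3. In all panels but Plk1 the 3 MCK-MRcko/mdx points lie above the 3 Cre-/mdx points, and in each panel 1 LysM-MRcko/mdx point, replicate 1, lies above the other two.

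Clusters with a higher signal, which depends on probes as well as RNA, showed wider differences. The 19 genes with the lower means, 4.71 to 7.08, had a median MCK-MRcko/mdx difference of 0.38, and the 19 with the higher means, 7.16 to 10.64, had one of 0.81. Over the 38 genes Pearson's r between mean signal and difference was 0.75, given as a description because all points share the same 9 arrays. Mitosis genes with a CHR had a median difference of 0.70 (17 genes, 0.25 to 1.80) and those without had 0.60 (5 genes, 0.19 to 1.00). For replication genes with and without an E2F element the medians were 0.50 and 0.42, with 5 genes each.

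In LysM-MRcko/mdx quadriceps the same genes stood nearer to the controls, and 1 of 38, Plk1, was called higher and 0 lower, against 0.234% and 0.142% of all clusters. Means were above Cre-/mdx for 36 of 38 genes against 48.8% of all clusters, with Rrm1 and Pola1 below at -0.11 and -0.15. The median difference was 0.28 (0.21 for replication, 0.31 for mitosis). Plk1, a kinase of mitotic entry and spindle assembly, read 6.77, 6.38 and 7.59 in Cre-/mdx, 8.89, 7.59 and 7.59 in LysM-MRcko/mdx, and 7.45, 8.09 and 7.59 in MCK-MRcko/mdx. The value 7.59 thus stood in all groups, and the groups met at it. Its difference was 1.11 (2.16-fold, SE 0.45, unadjusted p = 0.0429, adjusted p no lower than 0.78 in limma). The call held only when the array left out was control replicate 3 or either of LysM-MRcko/mdx replicates 2 and 3. The difference was 0.68 when LysM-MRcko/mdx replicate 1 was left out. At an unadjusted p under 0.05 without the fold limit, Mcm6 passed as well, at 0.47 (SE 0.18, unadjusted p = 0.0373 in limma), and 0 genes were lower, against 2.85% and 3.35% of all clusters. Only Mcm6 and Cdk1 had all LysM-MRcko/mdx arrays above all controls, and 0 genes had them all below, against 3.29% and 4.44% of all clusters.

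The 3 LysM-MRcko/mdx mice were not alike. Replicate 1 lay above all controls for 36 of 38 genes, among them 26 of 26 mitosis genes, and above all MCK-MRcko/mdx arrays for 11. Replicate 2 did so against the controls for 3 genes and replicate 3 for 11. The median of the 38 genes relative to the Cre-/mdx mean was 0.72, 0.01 and 0.15 on these 3 arrays, and the median difference of the group was 0.08 without replicate 1. By comparison the 3 MCK-MRcko/mdx arrays stood at 0.35, 0.52 and 0.82 and lay above all controls for 33, 37 and 36 genes. The controls stood at 0.15, -0.29 and 0.18, and replicate 2, a female, was the lowest of the 9 arrays for 30 of 38 genes. Among females alone the median MCK-MRcko/mdx difference was 0.89, with that mouse as the only control, and among males alone it was 0.44, with a single knockout mouse.

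**Figure D4:**
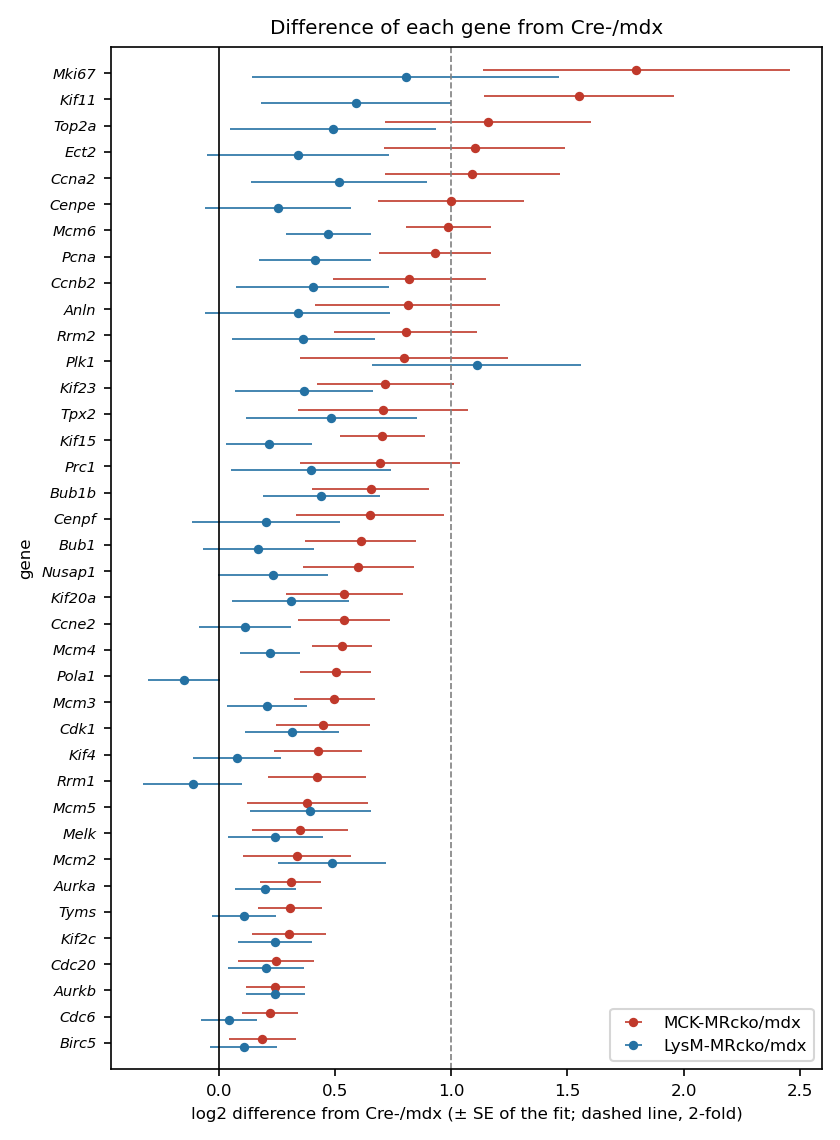
Log2 difference from Cre-/mdx (x axis; points, error bars ± SE of the limma fit, 3 arrays per group) of each of 38 genes (y axis), ordered by the MCK-MRcko/mdx difference, in red for MCK-MRcko/mdx and blue for LysM-MRcko/mdx. The dashed line marks 2-fold. All red points lie above 0, and Plk1 is the only blue point beyond the line. Both sets of points use the same controls.

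Set directly against MCK-MRcko/mdx, LysM-MRcko/mdx had lower means for 34 of 38 genes and higher means for 3, against 48.6% of all clusters with a positive difference. The median difference was -0.35, and 0 of 38 genes were called in either direction (0.204% of all clusters were called higher and 0.225% lower). At an unadjusted p under 0.05 in limma, 6 genes were lower and 0 higher, against 4.13% and 2.99% of all clusters, and 4 of these 6 belong to replication. Pola1 read 7.07, 7.07 and 6.75 in Cre-/mdx, 7.49, 7.41 and 7.50 in MCK-MRcko/mdx, and 7.07, 6.5 and 6.87 in LysM-MRcko/mdx, so the MCK-MRcko/mdx arrays lay apart from both other groups. Its LysM-MRcko/mdx difference from MCK-MRcko/mdx was -0.65 (SE 0.15, unadjusted p = 0.00373 in limma). The others were Cenpe at -0.75, Rrm1 at -0.54, Mcm6 at -0.52, Kif15 at -0.49 and Mcm4 at -0.31, and the smallest adjusted p was 0.53. All LysM-MRcko/mdx arrays lay below all MCK-MRcko/mdx arrays for Mcm4, Ccne2, Pola1 and Cenpe and above them for 0 genes, against 5.06% and 3.72% of all clusters. Without LysM-MRcko/mdx replicate 1, 4 genes were called lower in LysM-MRcko/mdx (Ect2, Kif11, Mki67 and Top2a), and without MCK-MRcko/mdx replicate 1 only Ect2 was.

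Across the 9 arrays the genes moved together. All 703 pairs of the 38 genes had a Pearson's r above 0, from 0.06 to 0.99 with a median of 0.83, as a description of arrays that include the group differences. Top2a followed the median of the other genes most closely (r = 0.99), and Birc5 followed it least (r = 0.61), with Pola1, Mcm2 and Plk1 next at 0.65, 0.65 and 0.68. Among 12066 other genes with a mean of 6 or more, the 10 with the pattern most like the median of the 38 over 9 arrays had r between 0.95 and 0.98. They were Ncapg, Knl1, Aspm, Sgo1, Kif20b, Clcn5, Cip2a, Gm15428, Dlgap5 and Itgav, and 6 of these 10 stand in the list of other mitosis genes described next.

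Further genes of the pathway, from lists chosen by function, showed mostly the same direction at smaller size, though some of their clusters hardly varied between arrays. Of 47 other mitosis genes measured, 46 had a higher mean in MCK-MRcko/mdx than in Cre-/mdx, with a median difference of 0.29. At the unadjusted p limit 18 were higher and 1 lower, against 3.02% and 2.52% of all clusters. Shcbp1, a protein of the midbody, was called higher, with signals of 6.09, 5.21 and 5.69 in Cre-/mdx, 6.61, 6.44 and 7.07 in MCK-MRcko/mdx, 6.83, 5.88 and 6.04 in LysM-MRcko/mdx, and a difference of 1.04 (SE 0.33, unadjusted p = 0.0153 in limma). The condensin subunit Smc2, the spindle protein Hmmr and the kinetochore protein Nuf2 lay at 0.96, 0.92 and 0.84. Pttg1, the securin that holds separase inactive until anaphase, was the exception in direction. It read 7.06, 7.10 and 6.86 in Cre-/mdx, 5.78, 6.5 and 5.58 in MCK-MRcko/mdx, and 6.74, 6.74 and 7.52 in LysM-MRcko/mdx, and was called lower in MCK-MRcko/mdx than in Cre-/mdx at -1.05 (SE 0.29, unadjusted p = 0.00907 in limma). In LysM-MRcko/mdx 45 of these 47 genes had a higher mean than in Cre-/mdx, with a median of 0.21, and 0 were called. Of 39 other replication genes 0 were called in either knockout, with medians of 0.13 in MCK-MRcko/mdx and 0.06 in LysM-MRcko/mdx. In MCK-MRcko/mdx 5 of the 39 (Prim2, Pole2, Tipin, Chaf1a and Cdc7) passed the unadjusted p limit at 0.22 to 0.54, against 3.02% of all clusters higher. All MCK-MRcko/mdx arrays lay above all controls for 8 of the 39, against 3.39% of all clusters. In LysM-MRcko/mdx 0 passed that limit. Orc1, Cdc45 and Timeless of the replication list held a single value on all 9 arrays, at 4.34, 6.38 and 5.06. Pold1 and Mcm10 of that list ranged over only 0.02 and 0.09, and Mybl2 of the mitosis list over 0.04. Such clusters could show little or no difference, and their part in the smaller medians was not tested.

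The genes that admit cells to the cycle mostly had higher means in both knockouts, and those that hold cells out of it went both ways. Of 14 G1 regulators 0 were called in either knockout. In each, 12 of 14 had a higher mean than in Cre-/mdx, against 48.7% of all clusters in MCK-MRcko/mdx and 48.8% in LysM-MRcko/mdx. Medians were 0.12 in MCK-MRcko/mdx and 0.15 in LysM-MRcko/mdx. At the unadjusted p limit 3 of 14 were higher in MCK-MRcko/mdx, against 3.02% of all clusters, and 0 in LysM-MRcko/mdx, against 2.85%. All MCK-MRcko/mdx arrays lay above all controls for 3 of 14, against 3.39% of all clusters. Cdk6, a kinase that phosphorylates the retinoblastoma protein, passed the unadjusted p limit in MCK-MRcko/mdx at 0.84 (SE 0.23, unadjusted p = 0.00901 in limma). So did its relative Cdk4 and the ubiquitin ligase subunit Skp2, at 0.56 and 0.55 in MCK-MRcko/mdx. Of 16 brakes of the cycle 0 were called in MCK-MRcko/mdx, where 10 had a higher and 6 a lower mean and the median was 0.04. The cyclin-dependent kinase inhibitor Cdkn1b lay at -0.45, and Rbl1, a retinoblastoma relative that E2F factors themselves induce, lay at 0.61, both past the unadjusted p limit. Cdkn1a encodes p21, which halts the cycle and also accompanies the exit of myoblasts from it. It read 12.40, 12.34 and 12.96 in Cre-/mdx, 11.87, 13.66 and 11.66 in MCK-MRcko/mdx, and 14.76, 13.77 and 13.31 in LysM-MRcko/mdx. Every LysM-MRcko/mdx array lay above every control, at a difference of 1.38 that did not pass (unadjusted p = 0.0541 in limma). Against MCK-MRcko/mdx Cdkn1a was called higher, at 1.55 (SE 0.60, unadjusted p = 0.0358 in limma), while the groups overlapped and the call was lost in the fit of the 6 arrays alone (unadjusted p = 0.0781 in limma).

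Markers of the cell types that muscle holds moved with the groups too. Of 14 macrophage markers 14 had a higher mean in MCK-MRcko/mdx than in Cre-/mdx and 4 were called higher, against 48.7% and 0.227% of all clusters, with a median of 0.67. In LysM-MRcko/mdx 13 had a higher mean and 9 were called higher, against 48.8% and 0.234% of all clusters, with a median of 1.13. Replicate 1 of LysM-MRcko/mdx had the highest median, 1.64 against 0.87 and 0.97 on the other 2 arrays of its group, and was the highest of the 9 arrays for 11 of 14 markers. The order of the knockouts in the macrophage medians was thus the opposite of that in the medians of the division genes, a difference that was not tested. The summed linear signal of these 14 markers ran from 164928 to 345006 on the control arrays, 419210 to 554273 in MCK-MRcko/mdx and 290440 to 424786 in LysM-MRcko/mdx. Lyz2, the lysozyme M gene that carries the Cre allele of LysM-MRcko/mdx mice, made up 52.9% to 81.9% of this sum and was called lower in LysM-MRcko/mdx than in MCK-MRcko/mdx at -1.05, while 11 of the 14 markers had a higher mean there. Without Lyz2, as added after the values were seen, the sum of the other 13 markers ran from 38321 to 77354 in Cre-/mdx, 98714 to 122231 in MCK-MRcko/mdx and 125592 to 188528 in LysM-MRcko/mdx. Of 11 markers of satellite cells and myoblasts 0 were called in MCK-MRcko/mdx, where the median was -0.04. In LysM-MRcko/mdx 3 of these markers were called higher (Mymk, Myh3 and Chrna1), against 0.234% of all clusters, with a median of 0.46. Their summed signal was 17244 to 25287 in Cre-/mdx, 15717 to 28553 in MCK-MRcko/mdx and 33345 to 134041 in LysM-MRcko/mdx. The highest value was on LysM-MRcko/mdx replicate 1, the array that was high for the division genes and for the macrophage markers. On that array Myh3, Mymk and Chrna1 read 15.84, 14.83 and 14.64 on the log2 scale and made up most of the linear sum. Pax7, Myf5 and Myod1 read between 6.63 and 8.79 there, so the sum says little of them. Their means were higher in LysM-MRcko/mdx than in Cre-/mdx, but they were not called. Of 10 endothelial markers 10 had a lower mean in MCK-MRcko/mdx, with a median of -0.67. Of these, Cdh5 was called lower, against 0.0944% of all clusters, of which 48.7% had a positive difference. At the unadjusted p limit 6 of the 10 were lower in MCK-MRcko/mdx, against 2.52% of all clusters. All MCK-MRcko/mdx arrays lay below all controls for 5 of the 10, against 2.81% of all clusters. In LysM-MRcko/mdx 0 endothelial markers were called and 1 was lower at the unadjusted p limit, against 3.35% of all clusters. There 9 of the 10 endothelial markers had a lower mean, with a median of -0.33. Their summed signal was 27902 to 45845 in Cre-/mdx, 11220 to 30681 in MCK-MRcko/mdx and 22244 to 24793 in LysM-MRcko/mdx. The 6 neutrophil markers had their highest median, 1.60 above the Cre-/mdx mean, on Cre-/mdx replicate 2, the array lowest for most division genes. Markers of fibroblasts and fibro-adipogenic progenitors had 0 of 8 called in either knockout, with medians of 0.18 and 0.32, and markers of T and NK cells had 0 of 8, with medians of -0.00167 and 0.12. No marker was at 0, since the scale has no 0. Which of these cells the division genes came from, and the part of the cell mixture in the differences, was not tested.

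**Figure D5:**
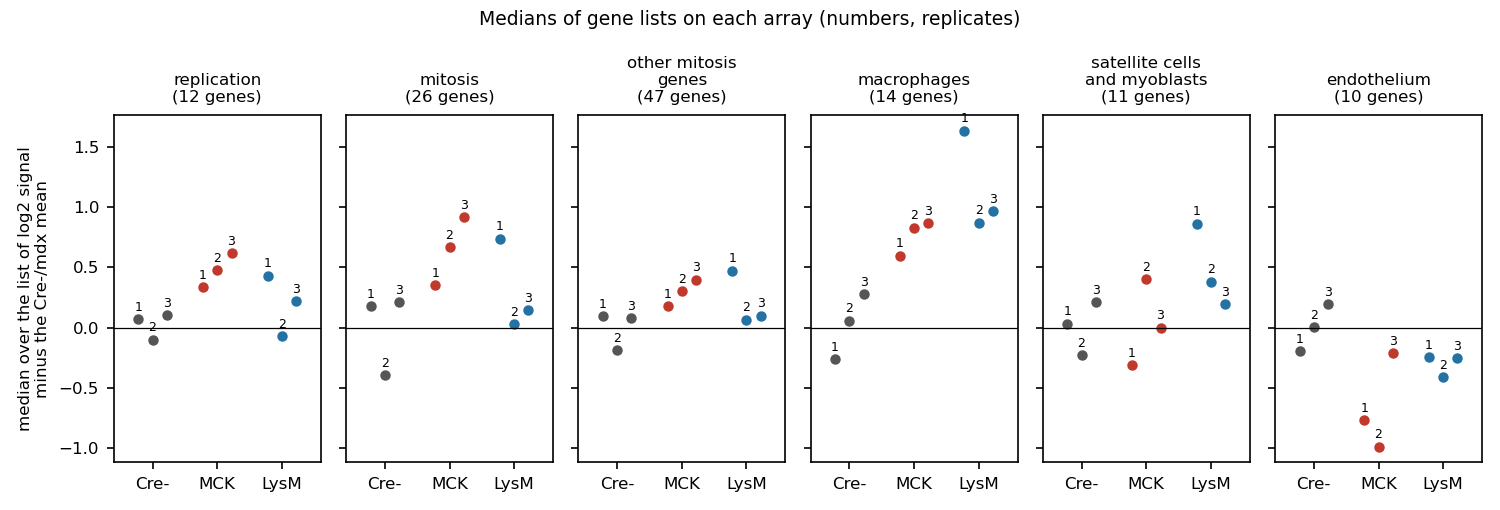
Median over each gene list (panels) of the log2 signal on an array minus the Cre-/mdx mean (y axis), by group (x axis; Cre-, Cre-/mdx; MCK, MCK-MRcko/mdx; LysM, LysM-MRcko/mdx). Points are arrays and carry the replicate number. The mitosis medians of MCK-MRcko/mdx were 0.35, 0.67 and 0.92, those of LysM-MRcko/mdx were 0.74, 0.03 and 0.14, and the macrophage medians were above all controls on all 6 knockout arrays.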

How the data were processed

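RNA of 9 quadriceps was hybridised to Clariom D arrays. The authors ran SST-RMA at the gene level (Affymetrix Expression Console) and deposited normalized log2 values. The versions are not given in the sources used here. Of 9 value columns 0 were left out. The probe table gave 1 symbol for 30450 clusters, several for 2151 and none for 33071. No filter, pseudocount or further normalization was applied, and precision is limited by the 3 arrays per group. R 4.3.3 and limma 3.58.1 fitted 1 mean per group to all 9 arrays and all clusters (lmFit, contrasts.fit, eBayes), without covariates, for 3 contrasts, with Benjamini-Hochberg adjustment over all 65672 clusters. The code was tested on simulated data. Array values are given for division and pathway genes called in any contrast and for Mki67, Top2a, Pcna, Mcm2 and Cdk1. Mcm6 and Pola1 were added after their values were seen. From the pathway lists, called genes and up to 4 with the largest differences are named, besides genes listed as passing the unadjusted p limit. Sequences are RefSeq's (GRCm38.p6). The genes and lists were chosen with earlier results of these data known.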

Additional observations from a re-analysis of the deposited data

Results flagged for a closer look

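In limma's contrast of LysM-MRcko/mdx with MCK-MRcko/mdx, 6 of the 38 division genes passed an unadjusted p under 0.05. All 6 were lower in LysM-MRcko/mdx, where 4.13% of all clusters were lower and 2.99% higher by this limit. With a difference of 2-fold as well, 2 genes of the pathway lists were called higher, against 0.204% of all clusters. These were 1 of 47 other mitosis genes and 1 of 16 brakes, with 0 of 39 other replication genes and 0 of 14 G1 regulators. LysM-MRcko/mdx was lower for Mcm4 (-0.31), Mcm6 (-0.52), Pola1 (-0.65), Rrm1 (-0.54), Cenpe (-0.75) and Kif15 (-0.49), and higher for Pttg1 (1.05) and Cdkn1a (1.55), all on the log2 scale. No adjusted p was under 0.05. Pola1 and Rrm1 had lower means than Cre-/mdx in LysM-MRcko/mdx and higher means in MCK-MRcko/mdx. Groups of 3 arrays were not tested for outliers.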

How the results depend on the processing

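For MCK-MRcko/mdx against Cre-/mdx the 6 genes called became 19 with the unadjusted p alone and 0 with the adjusted p, and between 1 and 9 with 1 array left out. For LysM-MRcko/mdx against Cre-/mdx the 1 gene called became 0 with the 6 arrays of the comparison alone, with the plain equal-variance test and with the adjusted p, 2 with the unadjusted p alone, and 0 to 1 with 1 array left out. For LysM-MRcko/mdx against MCK-MRcko/mdx 0 genes became 6 with the unadjusted p alone and 0 to 4 with 1 array left out. Quantile normalization, median centring, sex as a covariate, only clusters at or above the median level, trend and robust options, array weights and the mean of a gene's clusters gave 5 to 7 genes in the first comparison, and the plain equal-variance test gave 5, without Mki67. Values for single sexes were chosen after seeing the data. In females alone the MCK-MRcko/mdx median difference moved to 0.89 for all genes and 1.06 for mitosis genes. With the replicate number as a block 6, 0 and 0 genes were called in these 3 comparisons. Same-numbered arrays correlated between -0.23 and 0.16 in their deviations from group means, and differently numbered arrays between -0.35 and 0.33. With 3 arrays a group these correlations cannot settle whether a number marks a shared litter or batch. With 1 array left out the call of Kif11 held, and those of Mki67, Top2a, Ect2, Ccna2, Cenpe and Shcbp1 were each lost when control replicate 2 or MCK-MRcko/mdx replicate 3 was dropped, of Mki67, Top2a and Ect2 also without MCK-MRcko/mdx replicate 2, and of Top2a and Ect2 without Cre-/mdx replicate 3. The call of Pttg1 against Cre-/mdx was lost without MCK-MRcko/mdx replicate 1 or 3, and against MCK-MRcko/mdx the call of Pttg1 held in 6 of 9 cases and that of Cdkn1a in 3 of 9. The plain equal-variance test ended both of the latter, and the 6 arrays of the comparison alone and the block ended that of Cdkn1a. No direction of a median or of a called gene was reversed under any alternative. Differences under 2-fold could not be called for single genes because the rule for a call sets that limit. With 3 mice a group the smallest adjusted p of a division gene in any comparison was 0.53 in limma. A common direction of the division genes could be described, but these genes are not separate observations. They moved together across the 9 arrays, with a median pairwise Pearson's r of 0.83 that includes the group differences. Cre-/mdx replicate 2 was the lowest array for 30 of 38 genes. The genes were also chosen with earlier results of these data known.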
